A study of Homo sapiens with 6 samples.

Results

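Aminoacyl-tRNA synthetases are the enzymes that join each amino acid to its transfer RNA (tRNA). Their mRNAs were followed in the human neuroblastoma line SK-N-BE(2), in which MYCN is amplified. The members are 36 genes taken by symbol, 20 cytosolic and 16 mitochondrial, out of 35130 gene names in each library, and all 36 were found. Cells in dishes received either the solvent DMSO or 1 µM NEN in medium for 24 h, and each treatment has 3 libraries that the labels call biological replicates. NEN appears in the labels only as an abbreviation. In published neuroblastoma studies it stands for niclosamide ethanolamine, which uncouples mitochondrial respiration; this is background and not a result. All libraries come from a single cell line, so the p-values measure the spread between cultures of that line. Values are TPM, transcript abundances scaled for transcript length and library total, and TPM keeps no record of sequencing depth.

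Each synthetase charges the tRNAs of its own amino acid, and cytosolic and mitochondrial protein synthesis mostly use enzymes from separate nuclear genes. Names ending in 2 mark the mitochondrial enzymes. GARS and KARS encode the cytosolic and the mitochondrial form from a single gene, and QARS serves the cytosol, because mitochondria make their glutaminyl-tRNA by amidating a mischarged tRNA. When a tRNA stays uncharged, the kinase GCN2 phosphorylates eIF2 alpha, translation of the transcription factor ATF4 increases, and ATF4 activates genes of amino acid supply. Mitochondrial stress reaches ATF4 through the kinase HRI. Many cytosolic synthetase genes are commonly listed among ATF4 targets. These are AARS, CARS, EPRS, GARS, IARS, LARS, MARS, NARS, SARS, TARS, VARS, WARS and YARS, called here the ATF4 set. DARS, FARSA, FARSB, HARS, KARS, QARS and RARS are the cytosolic members outside it.

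ATF4 binds, with a C/EBP partner, an element whose core reads TTGCATCA. RefSeq promoter windows (GRCh38.p14, 250 bases before to 50 bases after a gene's start) matched 30 of the 36 members. DARS, LARS, VARS, YARS, AARS2 and VARS2 were not matched. The core was searched on both strands. It was in a window of 6 members, AARS, CARS, IARS, MARS, NARS and TARS, which are 60% of the 10 matched genes of the ATF4 set. It was in none of the 6 matched cytosolic members outside the set and in none of the 14 matched mitochondrial members. Of all 35116 windows of this length, 0.866% held it. That share counts windows, while a member counts if any of its windows held the core. Counted by gene, 64 of 9125 tested genes matched by their current symbol had it. The ATF4 set was drawn up as a list of ATF4 targets, so its share is not independent evidence. All 6 members with the core are compared with other ATF4 targets further on. Sites of 5 of these members are shown, and that of AARS is not reported here. Each line gives 30 bases in the orientation of the element, with the core in capitals.
CARS: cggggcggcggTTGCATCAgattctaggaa
IARS: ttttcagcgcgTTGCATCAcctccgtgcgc
MARS: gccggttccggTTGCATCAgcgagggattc
NARS: cgattccggcgTTGCATCAgagagcgtaga
TARS: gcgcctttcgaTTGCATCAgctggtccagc

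The printed windows lie at chr11:3057407-3057436 (minus strand) for CARS, chr9:92293692-92293721 (minus) for IARS, chr12:57488053-57488082 (plus) for MARS, chr18:57621804-57621833 (plus, opposite to the gene) for NARS and chr5:33440956-33440985 (plus) for TARS. Counting the first transcribed base as 1, the core began 13 bases before the start of IARS. It spanned the start of CARS, from base -2 to 6, and of MARS, from base -4 to 4. In NARS it covered bases 15 to 22 and in TARS bases 3 to 10, within the transcribed part. With the third base left free (TTNCATCA), which also takes in every TTGCATCA, 2 more members matched, GARS and YARS2, and 3.62% of all windows did. A match describes these letters and shows no binding.

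The cells carried the defining genes of adrenergic neuroblastoma. All 10 markers of that list were tested, and their summed level was 5259 to 6054 TPM in DMSO and 6219 to 6430 TPM in NEN libraries. The labels name bone marrow as the tissue, yet 9 of 10 blood and bone marrow markers stayed under 1 TPM in every library, and CD3E, HBB, ITGAM and MPO were listed at 0 in all of them. The summed blood marker level was 0.516 to 2.30 TPM in DMSO and 0.150 to 0.838 TPM in NEN. The 5 stromal markers summed to 14.3 to 18.0 TPM and 25.1 to 29.2 TPM, of which PDGFRB gave most, and the 4 epithelial markers to 5.58 to 7.94 and 3.60 to 9.60 TPM. None of the stromal or epithelial markers was at 0 in all libraries. All libraries come from a single cultured line, and the source of these transcripts was not tested.

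Synthetase mRNAs were abundant, and their total hardly differed between treatments. All 36 together made 2764, 2774 and 2648 TPM in the DMSO libraries and 2827, 2702 and 2749 TPM in the NEN libraries, between 0.284% and 0.304% of the listed total. The 20 cytosolic genes accounted for 2352 ± 57 TPM in DMSO and 2380 ± 60 TPM in NEN (SD, n = 3), and the 16 mitochondrial genes for 377 ± 19 and 379 ± 12 TPM. In every sum the range of the NEN libraries overlapped that of the DMSO libraries. SARS, the seryl-tRNA synthetase, was the most abundant member, followed by GARS at 176 ± 12 TPM and CARS last of the cytosolic genes at 27.6 ± 1.3 TPM in DMSO. IARS2 was the most abundant mitochondrial member at 88.2 ± 6.1 TPM, more than CARS. LARS2 lay at 1.197, 2.518 and 1.615 TPM in DMSO and 1.404, 2.771 and 2.087 TPM in NEN. VARS2, with at most 0.772 TPM in any library, missed the filter of a mean of 1 TPM and was not tested. The plot of levels by library shows the drop from the cytosolic to the mitochondrial group.

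**Figure D1:**
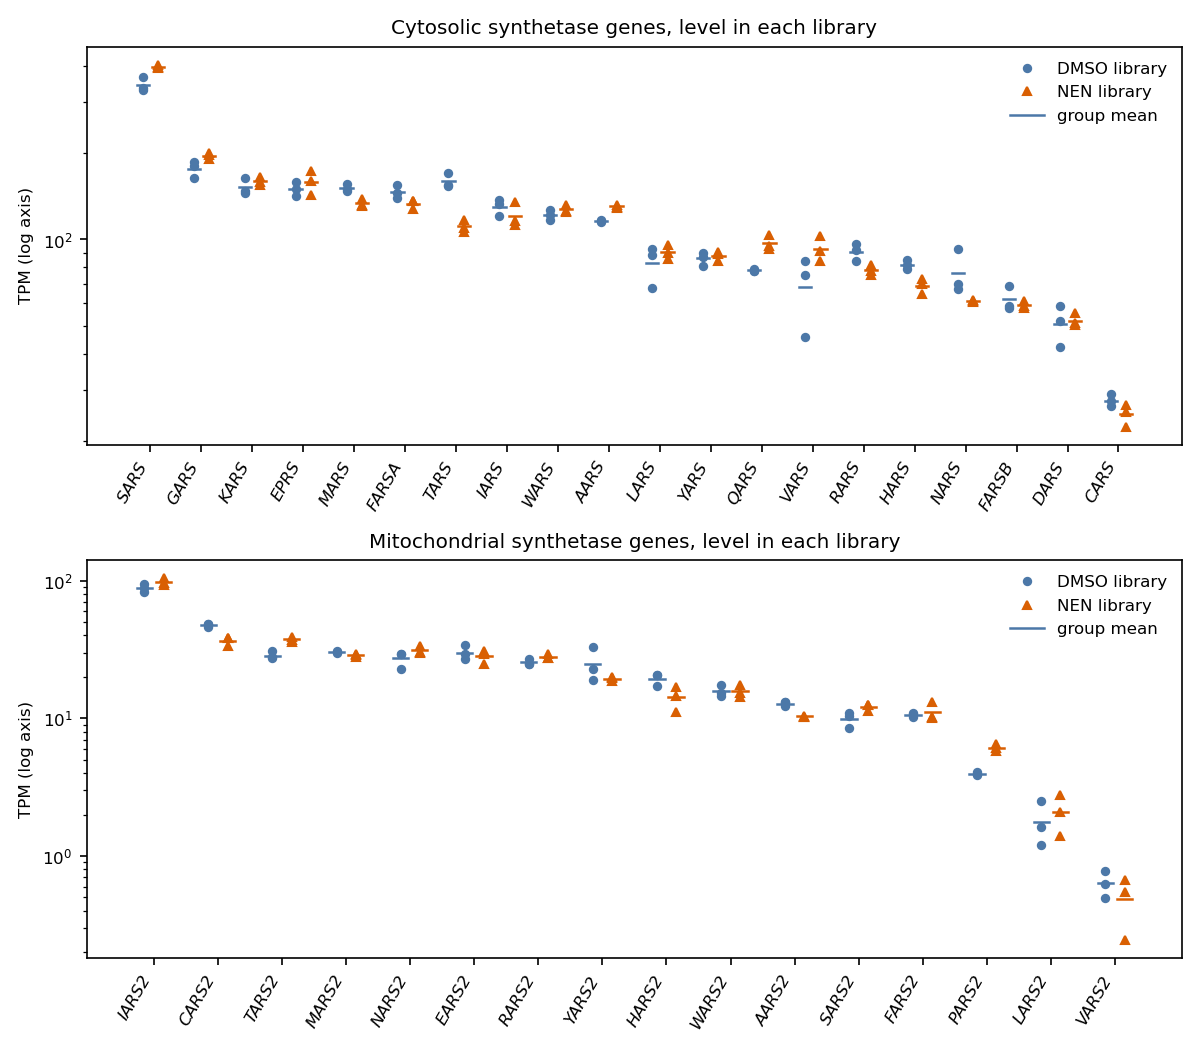
Level of each synthetase gene in TPM (log axis) in the 3 DMSO libraries (circles) and 3 NEN libraries (triangles), with short lines at the group means; cytosolic genes above, mitochondrial genes below, ordered by median level. Cytosolic genes mostly lie above 50 TPM, and among the mitochondrial genes only IARS2 does so.

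As a group the synthetases did not move together under NEN. Each change is the NEN mean less the DMSO mean of log2(TPM + 1), a scale that makes changes of low genes look smaller. It is given ± SE, with the Benjamini-Hochberg adjusted p from limma over the 12576 genes whose mean reached 1 TPM. Of the 35 tested members 5 rose and 4 fell, or 25.7%, while 30.0% of all tested genes were called (13.5% rose and 16.5% fell). The members' share is near that background and sets them apart in neither direction. Their median change was 0.05, against -0.02 over all genes tested, and they ranged from -0.52 to 0.52. The groups did not overlap for 20 members, while 46.8% of all tested genes had groups apart. In 10 of the 20 NEN lay above DMSO (21.8% of all tested genes) and in 10 below (25.0%). A lower share of the RNA and less RNA per cell cannot be told apart in these bulk libraries.

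**Figure D2:**
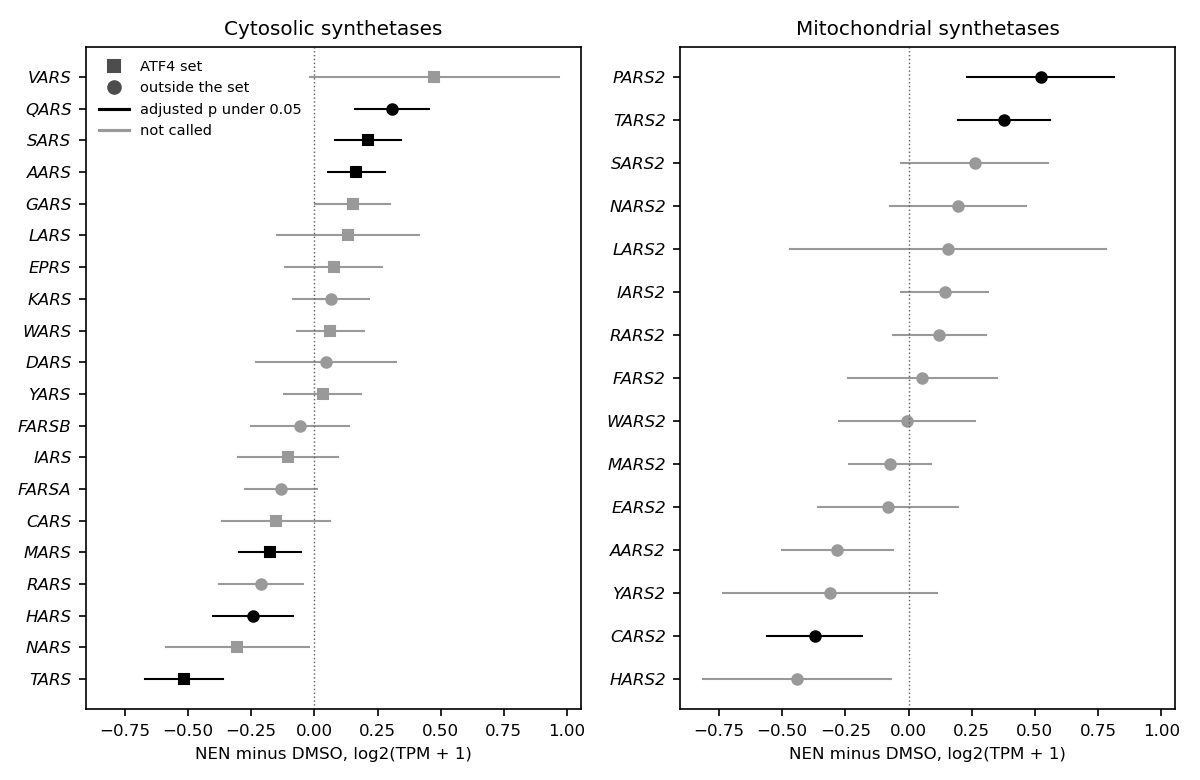
Change of each tested synthetase (NEN minus DMSO, log2(TPM + 1)) with its 95% interval from limma; squares are genes of the ATF4 set, circles all others, and black marks an adjusted p under 0.05. Black symbols lie on both sides of 0 in each compartment, from TARS at -0.52 to PARS2 at 0.52.

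Of the cytosolic members, 3 of 20 rose (QARS, SARS and AARS) and 3 fell (TARS, HARS and MARS). That is 15% in each direction and 30% called, near the 30.0% of all tested genes (13.5% rose and 16.5% fell). TARS, which charges threonine tRNA, had 152.8, 169.8 and 154.9 TPM in the DMSO libraries and 117.1, 106.0 and 109.7 TPM in the NEN libraries. Every NEN library lay well under every DMSO library, and the change was -0.52 ± 0.07 (adjusted p = 0.00194), the strongest fall of the tested members. QARS, which charges glutamine tRNA, had 77.7, 78.9 and 77.9 TPM in DMSO and 103.7, 92.3 and 95.2 TPM in NEN. The groups stood apart with hardly any spread in DMSO, and QARS rose by 0.31 ± 0.06 (adjusted p = 0.0103). SARS had 367.3, 330.8 and 335.0 TPM in DMSO and 403.1, 394.6 and 397.2 TPM in NEN, again without overlap (0.21 ± 0.06, adjusted p = 0.0272). The TARS and QARS calls held under all 15 alternatives tried.

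The other cytosolic calls were small and less firm. AARS, which charges alanine tRNA, had 117.0, 114.8 and 116.3 TPM in DMSO and 131.7, 129.0 and 130.1 TPM in NEN. Its groups were narrow and apart, yet the change was only 0.17 ± 0.05 (adjusted p = 0.0379). HARS, for histidine, had 84.7, 79.2 and 81.5 TPM in DMSO and 69.9, 64.4 and 72.9 TPM in NEN (-0.24 ± 0.07, adjusted p = 0.0332). MARS, for methionine, had 155.41, 149.99 and 147.71 TPM against 138.0, 131.9 and 131.1 TPM (-0.18 ± 0.05, adjusted p = 0.0406). In both genes all NEN libraries were the lower ones. With 1 library fewer these limma calls were often lost. AARS lost its call without DMSO replicate 2 (0.16), DMSO replicate 3 (0.17), NEN replicate 1 (0.16), NEN replicate 2 (0.17) or NEN replicate 3 (0.17). SARS lost it without DMSO replicate 2 (0.18), DMSO replicate 3 (0.19), NEN replicate 1 (0.20), NEN replicate 2 (0.22) or NEN replicate 3 (0.21). HARS lost it without DMSO replicate 1 (-0.22), 2 (-0.26) or 3 (-0.24) or NEN replicate 1 (-0.25) or 2 (-0.19). For MARS, dropping any single library of the 6 ended the call (-0.20 to -0.15), and its change was -0.10 after quantile normalization.

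The remaining 14 cytosolic genes were not called. Among them GARS, for glycine (163.1, 185.9 and 179.7 TPM against 199.9, 190.5 and 196.2 TPM; 0.15 ± 0.06, adjusted p = 0.112), and VARS (0.47 ± 0.21, adjusted p = 0.131) had all NEN libraries above all DMSO libraries, and FARSA (-0.13), NARS (-0.30) and RARS (-0.21) had all of them below. NARS, for asparagine, had 69.8, 93.0 and 67.1 TPM in DMSO against 61.2, 61.6 and 60.8 TPM in NEN, so its change rests largely on DMSO replicate 2 and was -0.16 without it. VARS, for valine, had 46.0, 75.4 and 83.9 TPM in DMSO and 103.0, 91.2 and 84.2 TPM in NEN. Its low library was DMSO replicate 1, and without that library the change was 0.21 (adjusted p = 0.152). RARS, for arginine, was called without DMSO replicate 3 (-0.26, adjusted p = 0.0416). With the correction for transcript length and GC content, GARS (0.25, adjusted p = 0.0174) and FARSA (-0.29, adjusted p = 0.00724) were called. CARS (-0.15), IARS (-0.10), FARSB (-0.06), YARS (0.03), DARS (0.05), WARS (0.06), KARS (0.07), EPRS (0.08) and LARS (0.13) had overlapping groups. Among those of the ATF4 set, CARS had 26.43, 28.96 and 27.39 TPM in DMSO and 25.3, 22.4 and 26.6 TPM in NEN. IARS, for isoleucine, had 137.1, 132.3 and 120.3 TPM against 134.4, 115.9 and 112.7 TPM. EPRS, which charges glutamate and proline tRNAs, had 149.1, 158.1 and 141.6 TPM against 159.3, 142.7 and 172.4 TPM. For CARS and IARS 2 of 3 NEN libraries lay below all DMSO libraries, and for EPRS 2 of 3 lay above them all. LARS, for leucine, had 88.7, 92.7 and 67.7 TPM against 90.0, 85.4 and 95.8 TPM, with DMSO replicate 3 as the low library. WARS, for tryptophan, had 126.8, 122.0 and 116.9 TPM against 132.0, 124.5 and 125.5 TPM. YARS, for tyrosine, had 90.0, 81.1 and 86.6 TPM against 83.9, 89.0 and 90.8 TPM, values that lie among each other.

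Mitochondrial members gave 2 rises (TARS2 and PARS2) and 1 fall (CARS2) among 15 tested. That is 20% called, below the 30.0% of all tested genes (13.5% rose and 16.5% fell). TARS2, the mitochondrial threonine enzyme, had 27.49, 30.55 and 27.62 TPM in DMSO and 36.01, 38.99 and 37.08 TPM in NEN. All NEN libraries were higher, and the change was 0.38 ± 0.08 (adjusted p = 0.0110). PARS2, for proline, is a low gene and had 3.96, 3.86 and 4.05 TPM in DMSO against 6.11, 6.46 and 5.80 TPM in NEN (0.52 ± 0.12, adjusted p = 0.0185). CARS2, for cysteine, had 48.7, 46.1 and 48.2 TPM against 38.5, 38.3 and 33.3 TPM (-0.37 ± 0.08, adjusted p = 0.0132). These groups did not overlap either. The TARS2 and CARS2 calls held under all 15 alternatives, while PARS2 was no longer called when DMSO replicate 2 (0.51) or NEN replicate 1 (0.52) or 2 (0.49) was left out, and its change was 0.31 with a pseudocount of 5.

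Outside the called genes, AARS2 and HARS2 were lower in every NEN library. AARS2, for alanine, had 12.18, 13.04 and 13.06 TPM against 10.3, 10.4 and 10.3 TPM (-0.28 ± 0.09, adjusted p = 0.0597). It was called in 3 of 15 alternatives, with limma without trend and robust (-0.28), after quantile normalization (-0.30) and with the length and GC correction (-0.37). HARS2, for histidine, had 17.1, 20.5 and 20.7 TPM against 14.6, 16.9 and 11.1 TPM (-0.44 ± 0.16, adjusted p = 0.0748), but was called when NEN replicate 2 was left out (-0.57, adjusted p = 0.0469). NARS2 (0.19), RARS2 (0.12) and SARS2 (0.26) were higher and MARS2 (-0.07) lower in every NEN library without a call. For EARS2 (-0.08), FARS2 (0.05), IARS2 (0.14), LARS2 (0.16), WARS2 (-0.004) and YARS2 (-0.31) the groups overlapped. YARS2 stood at 32.8 TPM in DMSO replicate 1 and between 18.6 and 22.7 TPM in the other 5 libraries, and its change was -0.10 without that replicate. The uncalled change of LARS2 shrank to 0.001 or 0.0001 when DMSO replicate 1 or NEN replicate 2 was dropped, and was 0.34 or 0.32 when DMSO replicate 2 or NEN replicate 1 was. IARS2 was called after quantile normalization (0.22) and with the length and GC correction (0.27).

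By compartment, the medians were 0.04 for the cytosolic and 0.05 for the mitochondrial members. Relative to the DMSO mean, the mean of the cytosolic members in NEN replicates 1 to 3 was 0.024, -0.047 and -0.002, and that of the mitochondrial members was 0.025, 0.070 and -0.040. The DMSO libraries themselves ranged from -0.043 to 0.048 and from -0.050 to 0.028. NEN replicate 2 lay outside both ranges, lower for the cytosolic and higher for the mitochondrial members, and the other NEN libraries lay within them. Enzymes of the multisynthetase complex, the particle that holds DARS, EPRS, IARS, KARS, LARS, MARS, QARS and RARS, included 1 rise and 1 fall among 8. The other 12 cytosolic enzymes had 2 rises and 2 falls, and both shares called (25% and 33.3%) lie near the 30.0% of all tested genes. That grouping was added after the values were seen.

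Within an amino acid the compartments were also compared library by library. For 12 amino acids with a single tested gene in each compartment, the log2 ratio of cytosolic to mitochondrial TPM + 1 was taken in each library. For threonine it was 2.43, 2.44 and 2.45 in DMSO and 1.67, 1.42 and 1.54 in NEN, a change of -0.89 that came from a fall of TARS and a rise of TARS2. For alanine the ratio was 3.16, 3.04 and 3.06 in DMSO and 3.56, 3.51 and 3.54 in NEN, a change of 0.45. These were the widest shifts downward and upward of the 12 ratios. The partner NARS2 had 29.3, 29.4 and 22.8 TPM in DMSO and 29.8, 30.2 and 33.2 TPM in NEN. For asparagine the ratio went from 1.46 ± 0.21 to 0.96 ± 0.09, for arginine from 1.79 ± 0.11 to 1.45 ± 0.10 and for isoleucine from 0.55 ± 0.03 to 0.31 ± 0.07 (SD, n = 3). Methionine, with a change of -0.10, was the last of 6 pairs whose groups did not overlap, of which 5 had a lower and 1 a higher ratio in NEN. The exact two-sided permutation test of 3 against 3 libraries gave p = 0.1 for each of these 6, the smallest p this design allows (adjusted p = 0.2 over 12 pairs), so no pair could pass 0.05. Among all tested genes taken singly, 46.8% had groups apart. No such share was computed for ratios of other gene pairs, so the count of 6 has no background of its own.

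**Figure D3:**
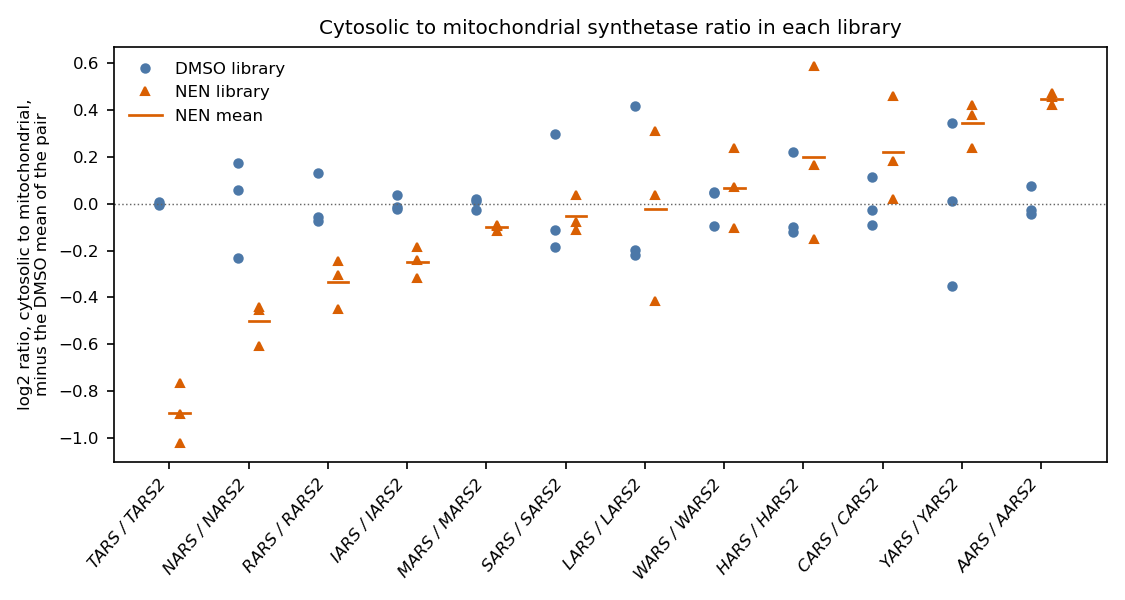
Log2 ratio of the cytosolic to the mitochondrial synthetase in each library, less the DMSO mean of the pair, for 12 amino acids; circles are DMSO libraries, triangles NEN libraries and lines NEN means. The threonine pair lies lowest at -0.89, the alanine pair highest at 0.45, and groups overlap for 6 pairs.

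Cysteine was the only one of these 12 pairs in which the mitochondrial mRNA was the more abundant, with a ratio of -0.77 ± 0.10 in DMSO and -0.55 ± 0.22 in NEN (SD, n = 3). At the other end, SARS exceeded SARS2 by 4.99 ± 0.26 and LARS exceeded LARS2 by 4.93 ± 0.36 in DMSO on the log2 scale. None of these 3 ratios had separate groups.

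HARS and HARS2 are neighbours transcribed in opposite directions, and only 84 bases separate their RefSeq starts. This stretch (GRCh38.p14, chr5:140691371-140691454, plus strand, reading from the HARS start toward the HARS2 start) is printed because both genes were lower in every NEN library, although only HARS was called.
HARS to HARS2: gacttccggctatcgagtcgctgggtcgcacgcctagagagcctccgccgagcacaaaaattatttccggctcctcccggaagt
Their ratio did not separate the groups (2.02 ± 0.19 in DMSO and 2.22 ± 0.37 in NEN, SD, n = 3).

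The ATF4 set did not rise as a whole. Of its 13 genes 2 rose (SARS and AARS), 2 fell (TARS and MARS) and 9 were not called, with a median of 0.06. The 7 cytosolic genes outside the set had 1 rise (QARS), 1 fall (HARS) and a median of -0.06. Both shares of calls, 30.8% and 28.6%, are near the 30.0% of all tested genes. Of the 6 genes with the TTGCATCA core, AARS rose, MARS and TARS fell, and CARS, IARS and NARS were not called. Only 1 of these 6 had a change above 0, and their median was -0.16. For the 10 matched cytosolic genes without the core the median was 0.06, with 2 rises and 1 fall. Of all 12576 tested genes 5986 had a change above 0, 13.5% rose and 16.5% fell. The difference between genes with and without the core was not tested. The upper ends of the 95% intervals were 0.06 for CARS, 0.10 for IARS and -0.02 for NARS.

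Many other ATF4 targets rose in the same libraries, though not all. Of 34 listed targets outside the synthetases 32 were tested, 19 rose (59.4%, against 13.5% of all tested genes) and 3 fell (9.38%, against 16.5%). The median change was 0.33, against -0.02 over all genes tested. The 10 not called were SLC6A9 (0.51), PHGDH (0.41), SLC7A11 (0.26), SLC7A5 (0.14), ALDH1L2 (0.14), SLC3A2 (0.13), ATF3 (0.10), SLC1A5 (0.05), ALDH18A1 (0.0008) and PSPH (-0.20). A lack of a called rise was therefore not particular to the synthetases. TRIB3, a pseudokinase that restrains ATF4 signalling, had 10.52, 9.486 and 11.04 TPM in DMSO and 33.5, 32.7 and 34.8 TPM in NEN (1.61 ± 0.09, adjusted p = 0.000215). CHAC1, which degrades glutathione, had 5.85, 7.35 and 7.06 TPM against 19.8, 20.5 and 16.4 TPM (1.36 ± 0.13, adjusted p = 0.000778). ASNS, the asparagine synthetase, had 99.4, 82.5 and 77.5 TPM against 125.3, 120.5 and 116.5 TPM (0.48 ± 0.10, adjusted p = 0.00901). All NEN libraries lay above all DMSO libraries in these 3 genes. The stress transcription factor DDIT3 (CHOP) rose by 1.70 ± 0.13 and the secreted stress signal GDF15 by 3.32 ± 0.17 (adjusted p = 0.000332 and 0.000215). The 3 falls, named after their values were seen, were PSAT1 (-0.41), a serine synthesis enzyme, CBS (-0.32), of transsulfuration, and the cationic amino acid transporter SLC7A1 (-0.23). No single library could be dropped without ending the call of SLC7A1 (-0.26 to -0.19). Without NEN replicate 2 the count of rises was 12 and that of falls 2.

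Summarised per library, the mean of these 32 targets lay 0.662, 0.616 and 0.574 above the DMSO mean in NEN replicates 1 to 3. Large changes of a few genes, such as GDF15 (3.32) and DDIT4 (2.20), raise this mean above the median change of 0.33. The mean of the ATF4 set of synthetases was 0.045, -0.041 and 0.009 in the same libraries, against -0.033 to 0.064 in the DMSO libraries. The lists were chosen with earlier results of these data known, so the direction of the target list is not independent evidence. ATF4 mRNA itself had 352.2, 348.2 and 337.2 TPM in DMSO and 376.7, 374.5 and 363.2 TPM in NEN. The groups were apart, yet the change was small (0.10 ± 0.05, adjusted p = 0.138) and was called only after quantile normalization (0.17). Of the targets with a matched window, 14.8% of 27 held the core (CHAC1, CEBPG, SLC1A5 and JDP2). CHAC1 and CEBPG (0.28 ± 0.08, adjusted p = 0.0432) rose, SLC1A5 (0.05) was not called, and JDP2 was not tested. The median of the 3 tested targets with the core was 0.28. It was higher, 0.51, for the 23 tested targets with a matched window and no core, of which 14 rose and 3 fell. With TTNCATCA, 29.6% of the 27 matched, and ATF3, ASNS, SLC3A2 and SLC7A1 were added. The median was then 0.13 for the 7 tested targets with a match and 0.58 for the 19 without. A window without a match does not show that a gene lacks an ATF4 element, which may lie elsewhere or differ in its letters. CEBPG kept no call once any single library was left out (0.23 to 0.31).

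**Figure D4:**
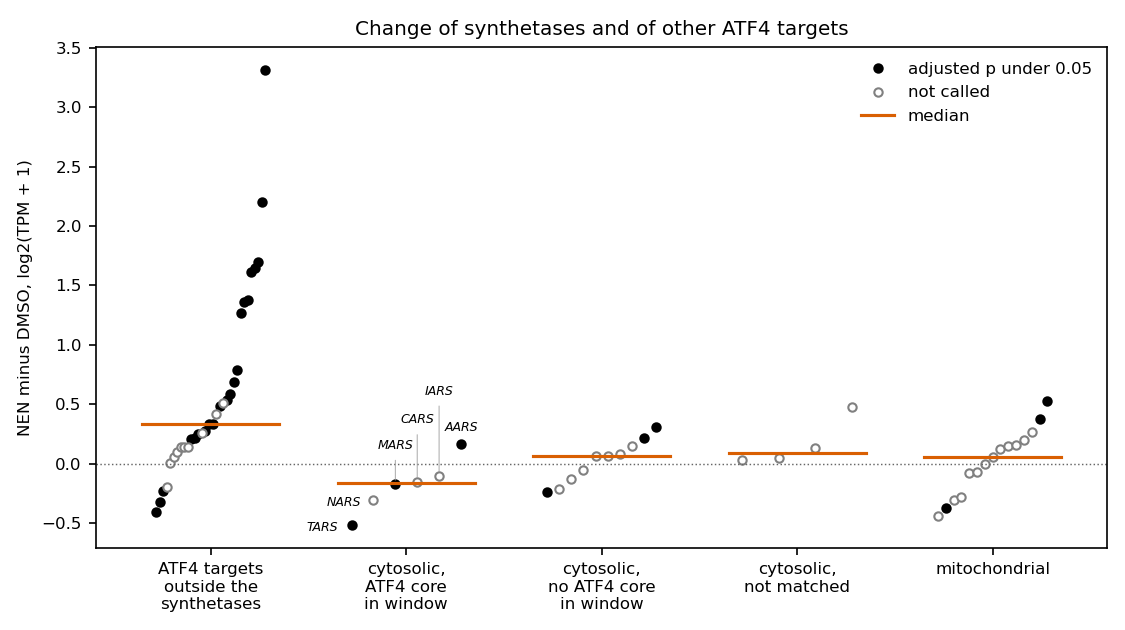
Change of each tested gene (NEN minus DMSO, log2(TPM + 1)) for 32 ATF4 targets outside the synthetases, for cytosolic synthetases with the ATF4 core in a promoter window (6), without it (10) or without a matched window (4), and for 15 mitochondrial synthetases; filled points have an adjusted p under 0.05 and lines are medians. The target median is 0.33, while the 6 genes with the core have a median of -0.16 and only AARS lies above 0.

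Partners of the synthetases and other aids of tRNA charging numbered 18, of which 3 rose (16.7%, against 13.5% of all tested genes) and 4 fell (22.2%, against 16.5%). With 38.9% called against 30.0%, the list lay near the share of all tested genes. EEF1E1, the scaffold protein AIMP3 of the multisynthetase complex, had 84.0, 113.2 and 94.3 TPM in DMSO and 56.3, 61.3 and 62.2 TPM in NEN. All NEN libraries were lower, and the change was -0.68 ± 0.11 (adjusted p = 0.00453). The scaffold AIMP2 fell by 0.29 ± 0.08 (adjusted p = 0.0314), and was not called when any of these was left out: DMSO replicate 1 (-0.26), 2 (-0.32) or 3 (-0.28) or NEN replicate 2 (-0.26) or 3 (-0.24). AIMP1, the third scaffold, ranged from 18.5 to 39.5 TPM in DMSO and from 18.6 to 35.3 TPM in NEN (0.03 ± 0.31). EEF1A1 and EEF1A2, the elongation factors that carry charged tRNA to the ribosome, rose by 0.24 ± 0.05 and 0.46 ± 0.06 (adjusted p = 0.00749 and 0.00258). EEF1A1 has many near-identical pseudogenes, so its value is uncertain.

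Among further charging genes, TRNT1, which adds the CCA end to tRNAs, fell from 11.6 ± 1.4 to 7.84 ± 1.02 TPM (SD, n = 3), and TSFM, a mitochondrial elongation factor, from 59.8 ± 7.0 to 46.5 ± 2.5 TPM. TRNT1 lost its call without DMSO replicate 2 (-0.42) or 3 (-0.56) or NEN replicate 2 (-0.51) or 3 (-0.43). TSFM kept it only without DMSO replicate 2 among the 6 libraries left out, and had -0.37 to -0.27 in the others. AARSD1, which removes wrongly attached serine from alanine tRNA, rose by 0.28 ± 0.08 (adjusted p = 0.0358) and lost its call without DMSO replicate 2 (0.24) or 3 (0.31) or NEN replicate 1 (0.26) or 3 (0.25). XPOT, the export receptor of tRNA, had 88.8 ± 5.8 and 94.6 ± 2.9 TPM (0.09, adjusted p = 0.344), and was called with the length and GC correction (0.23). With DMSO replicate 3 or NEN replicate 3 left out, only 1 partner fell.

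Of the 7 genes of sensing and signal 1 was called, or 14.3%, below the 30.0% of all tested genes. This gene was EIF2AK1, which encodes HRI, and it rose from 96.7 ± 4.4 to 122.0 ± 1.4 TPM (SD, n = 3). Its change was 0.33 ± 0.06 with an adjusted p = 0.00521 in limma. EIF2AK4, which encodes the uncharged-tRNA sensor GCN2, had 35.5, 24.5 and 20.1 TPM in DMSO and 25.7, 23.6 and 20.9 TPM in NEN. Its groups overlapped, with a change of -0.15 ± 0.20 (adjusted p = 0.601).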

How the data were processed

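RNA-seq values of 6 libraries were used, 3 with DMSO and 3 with NEN by the treatment label. Total RNA was extracted with Trizol, and polyA capture or rRNA removal is named without a choice, per the labels' protocols. Per the submitters' processing notes, kallisto was used and hg19 named, with no version given in the sources used here. The values deposited by the authors were read as TPM, scaled for transcript length and library total. No header or label names the unit, which was inferred from kallisto and from decimal values that sum to between 929054 and 933500 in each library. Depth is unknown, so no counting intervals are given.

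The 12576 genes whose mean reached 1 TPM were taken as log2(TPM + 1) and fitted with limma 3.58.1 (R 4.3.3; group alone, trend and robust, two-sided, Benjamini-Hochberg, threshold 0.05). The fit was also run on simulated data with independent normal noise and far fewer changed genes than were called here. That run is not used as support. Members and lists were chosen with earlier results of these data known. Of the list symbols, PET112 was found as GATB. All members are named, and other lists give up to 6 genes of smallest adjusted p and some fixed names. AARSD1, PSAT1, CBS, SLC7A1, CEBPG, SLC1A5, JDP2 and the other uncalled ATF4 targets were named after their values were seen. A planned comparison of protein sequences was not made. The 15 alternatives covered each library left out, the replicate block, filters, scalings, limma settings, pseudocounts and a length and GC correction (GENCODE 29, loess span 0.3, 93.4% of genes, all 35 tested members). Promoters came from RefSeq GRCh38.p14, a build other than that of the files, matched by symbol; the upstream sequence of AARS is not reported here. Figures used matplotlib 3.10.9 in Python 3.11.15.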

Additional observations from a re-analysis of the deposited data

How the results depend on the processing

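TARS, QARS, TARS2 and CARS2 kept direction and call in limma under all 15 alternatives. The replicate numbers did not pair the libraries: deviations of same-numbered libraries correlated at 0.01, -0.01 and -0.03. With the replicate block, 3 synthetases rose and 2 fell, with 1 fall of cytosolic members, 1 rise and 1 fall in the ATF4 set, 0 falls outside it and 1 mitochondrial rise. It also ended the calls of AARS, HARS, MARS and PARS2. Median-ratio scaling left 2 falls, 1 of them cytosolic and in the ATF4 set, and 0 outside it. No filter left 2 falls (1 cytosolic, in the ATF4 set, 0 outside it) and 1 rise in the ATF4 set. Plain limma settings gave 3 rises (1 cytosolic, 0 in the ATF4 set), 1 cytosolic fall, 1 fall in the ATF4 set, 0 outside it and 2 mitochondrial falls. After quantile normalization the medians were 0.104 for all members, 0.107 cytosolic, 0.142 for the ATF4 set and 0.016 outside it, with 1 cytosolic fall, 1 in the ATF4 set, 0 outside it and 2 mitochondrial falls. Length and GC correction gave the most calls, 7 rises and 6 falls of all members, 4 and 4 of cytosolic members and 3 and 2 in the ATF4 set. It gave medians of 0.099 (cytosolic) and 0.046 (outside the ATF4 set), 2 falls outside the set and 2 mitochondrial falls. No scaling moved the median of all genes by over 0.1. The cause of these shifts was not tested.

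Leaving out 1 library gave 2 to 5 rises, 2 to 3 falls and a median of -0.0057 to 0.067 for all members. Cytosolic members had 1 to 3 rises, 1 to 2 falls and a median of -0.042 to 0.067, mitochondrial members 1 to 2 rises and 1 to 2 falls. The ATF4 set had 0 to 2 rises and 1 fall, and the genes outside it 0 to 1 falls and a median of -0.103 to 0.023. The other ATF4 targets had 12 to 15 rises and a median of 0.28 to 0.398.

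Directions turned only in uncalled values. Leaving out libraries gave -0.213 to 0.313 for AIMP1, -0.079 to 0.148 for DARS, -0.155 to 0.0095 for EARS2, -0.329 to 0.068 for EIF2AK4, -0.058 to 0.118 for FARS2, -0.103 to 0.023 for FARSB, -0.0057 to 0.218 for LARS, -0.075 to 0.072 for WARS2 and -0.0077 to 0.067 for YARS. The ratios gave -0.190 to 0.185 for LARS to LARS2, -0.144 to 0.097 for SARS to SARS2 and -0.017 to 0.153 for WARS to WARS2. Length and GC correction turned FARSB (0.046), IARS (0.0081), SLC1A5 (-0.020), WARS2 (0.085) and the ratios LARS to LARS2 (0.066) and SARS to SARS2 (0.188). Quantile normalization turned FARSB (0.016), WARS2 (0.0089), LARS to LARS2 (0.081) and SARS to SARS2 (0.039), a pseudocount of 5 LARS to LARS2 (0.062) and SARS to SARS2 (0.014), and median-ratio scaling WARS2 (0.022).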

Other observations

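Of all tested genes matched by their current symbol, 64 had the TTGCATCA core in a promoter window. CHAC1, CEBPG and SLC1A5 of the ATF4 target list are among them. Of the 64 genes 15 rose (23.4%) and 6 fell (9.38%), with a median change of 0.08. Of 9061 matched genes without it 14.1% rose and 17.0% fell, with a median of -0.02. With TTNCATCA, 37 of 238 genes rose (15.5%) and 29 fell (12.2%). These shares are descriptions and the genes are not independent replicates. The 6 synthetases with the core were listed under older symbols and are not among the 64. Members with unchanged symbols, such as FARSA and FARSB, had no core and are among the 9061.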
